A study of Mus with 2 samples.

Results

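The genes described here encode the enzymes that build sterols and fatty acids and the proteins that regulate them. The set holds 34 genes, of which 18 belong to the sterol arm, 10 to the fatty acid arm and 6 to the regulators. A gene entered if it was among the 32285 features measured and had at least 20 unique molecular identifiers (UMIs) over both tumor sections. All 34 met that limit, as did 14313 genes in all. The set was chosen from earlier results of these data in which genes of sterol synthesis were lower in the treated section, so the differences between sections are given as a description. The least counted member, Hsd17b7, had 312 UMIs in one section and 148 in the other, so no member lay near the limit.

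Both tumors were grown from CT26, a mouse colon carcinoma cell line, after 200000 cells had been placed under the skin of female balb/c mice aged 6 to 8 weeks. The rIL7 mouse received 10 µg of recombinant mouse interleukin 7 into the peritoneum on days 11 and 13, the control mouse received PBS, and tumors were taken on day 15. One frozen section of 10 µm from each group was measured with Visium, which captures polyadenylated RNA on a grid of barcoded spots that can each hold several cells of different types. Each group is therefore 1 section of 1 tumor, with no replicate check and no test, and the intervals below cover counting error only.

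Cholesterol is built from acetyl-CoA through mevalonate, isoprenoids, squalene and lanosterol. Fatty acids are built from the same precursor through malonyl-CoA and are then elongated and desaturated. Both pathways are under the transcription factors SREBP-1 and SREBP-2, which SCAP escorts out of the endoplasmic reticulum when sterols are scarce and which the INSIG proteins hold back when sterols are plentiful. Tumor cells and activated immune cells are both known to draw on these pathways.

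After filtering, the control section had 2219 spots and 22951678 UMIs, and the rIL7 section had 1950 spots and 25729233 UMIs. The median spot held 9623 UMIs in control tissue and 12922 in the rIL7 section. Levels are therefore given as counts per 1000000 UMIs (CPM) of a section, quadrant or zone. UMIs are read from the 3′ end of a transcript, so a level does not scale with gene length. The median log2 ratio of rIL7 over control was 0.00 over the 14313 genes. The CT26 markers named by the study, Rpl39l and Baiap2l1, were present in both sections at 432 and 379 CPM and at 861 and 664 CPM.

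The sterol arm was lower in the rIL7 section, whereas the fatty acid arm differed less. Summed over its 18 genes, the sterol arm was at 1041 CPM in control tissue and 607 CPM in the rIL7 section, 1.72-fold lower (log2 ratio -0.78, 95% interval -0.81 to -0.75). The fatty acid arm was at 1507 CPM and 1224 CPM, 1.23-fold lower (log2 ratio -0.30, -0.32 to -0.28). The regulators were at 428 CPM and 336 CPM, 1.27-fold lower (log2 ratio -0.35, -0.39 to -0.31), and Insig1 took 19.2% of their UMIs in control tissue and 11.0% in rIL7 tissue. In a spot, fewer cells of a type and less RNA per cell cannot be told apart.

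All 18 sterol genes were lower in the rIL7 section, 16 of them by at least 1.5-fold, and their median log2 ratio was -0.86. In the fatty acid arm 9 of 10 genes were lower, 1 by at least 1.5-fold, with a median of -0.28. All 6 regulators were lower, 1 by at least 1.5-fold, with a median of -0.26. These directions did not hold for 11 members under every alternative. Relative to the CT26 tumor markers, a scaling added after the data were seen, 2 sterol genes (Ebp at 0.18 and Sc5d at 0.01), 4 fatty acid genes (Acly at 0.16, Me1 at 0.20, Scd1 at 0.07 and Lpin1 at 0.08) and 4 regulators (Insig2 at 0.30, Srebf1 at 0.21, Srebf2 at 0.06 and Scap at 0.04) had log2 ratios above 0. Acaca was at -0.02 in the spots lowest in macrophage UMIs, where Me1 was at 0.03 and Lpin1 at 0.25. In edge spots Ebp and Scd1 were at 0.03 and Insig2 at 0.19. Over all genes tested, 5.95% were lower by at least 1.5-fold and 7.72% were higher by as much, and 0 of the 34 members were among the higher ones. Few genes with more counts passed the same fold: where the mean over both sections was at least 20 CPM, 1.27% were lower and 1.97% were higher. Of the members at that level, 12 of 14 sterol genes, 1 of 9 fatty acid genes and 1 of 5 regulators were lower by at least 1.5-fold.

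**Figure D1:**
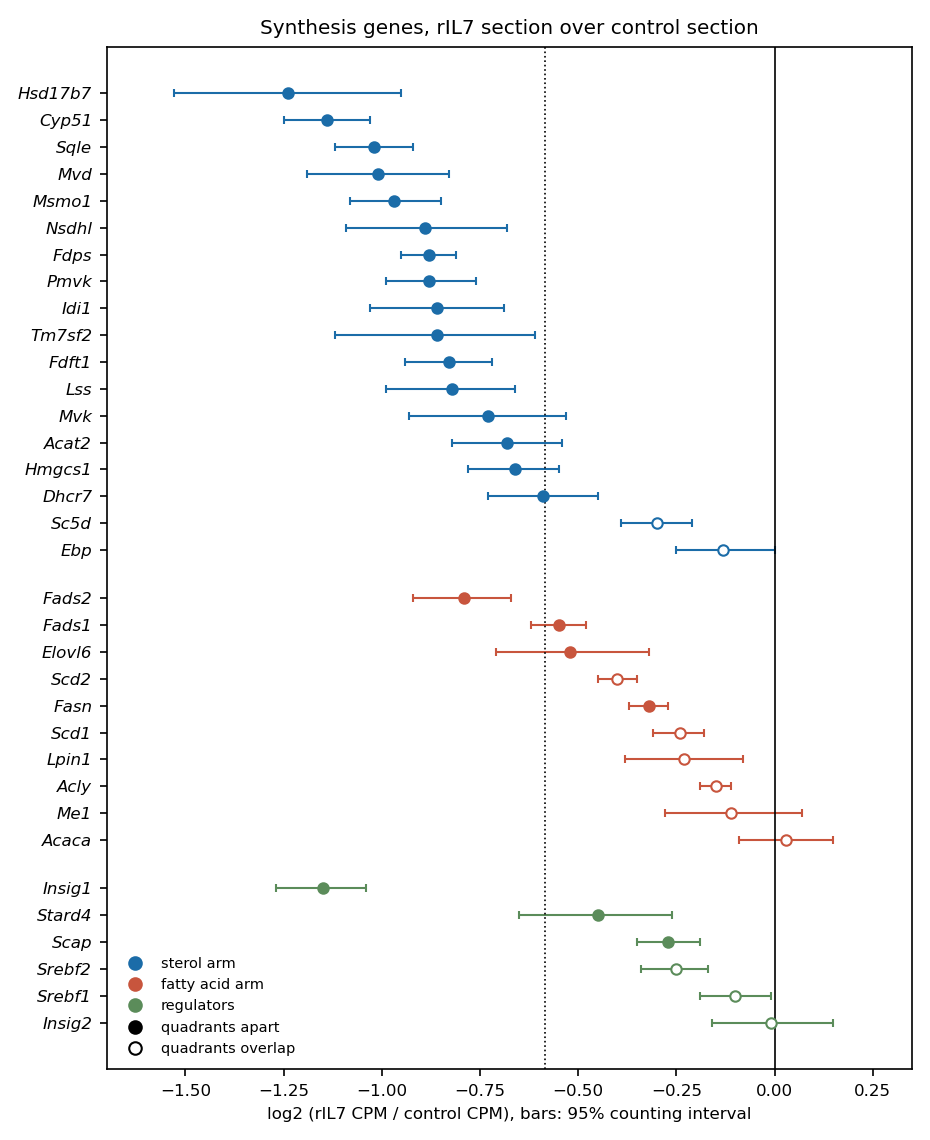
Log2 ratio of CPM in the rIL7 section over the control section for each of the 34 genes, by arm, with 95% counting intervals. Filled points mark genes whose 4 quadrants did not overlap between sections, the dotted line marks a 1.5-fold lower level, and the sterol genes lie between -1.24 and -0.13.

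As a measure of spread inside the tissue, 4 quadrants were cut from both sections at the median row and column of their spots. They are parts of 1 section and not replicates. The sterol arm was between 969 and 1110.3 CPM in the control quadrants and between 526 and 732 CPM in the rIL7 quadrants, so the ranges lay apart. The fatty acid arm was between 1439.6 and 1529 CPM in control tissue and between 1147 and 1328 CPM in the rIL7 quadrants, and these ranges also lay apart. Taken gene by gene, 16 of 18 sterol genes, 4 of 10 fatty acid genes and 3 of 6 regulators were lower in every rIL7 quadrant than in any control quadrant. Over all genes 9.77% were lower in this way and 9.74% were higher. These shares include many genes counted less than the members, and no share over genes of like counts was taken. The quadrants of a section were closer to each other in the control than in the rIL7 section for the sterol arm, with the highest quadrant 1.15 times the lowest in control tissue and 1.39 times in the rIL7 section. The highest rIL7 quadrant was the one with low row and low column numbers. In that quadrant the CT26 tumor markers were at their highest of the rIL7 quadrants, at 1149 CPM, and the macrophage markers at their lowest, at 1946 CPM. Fibroblast markers (2386 CPM), hypoxia genes (1142 CPM) and B and plasma cell markers (315 CPM) were also at their highest there. T cell markers (254 CPM) were at their lowest. The part of any of these in the sterol level was not tested.

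**Figure D2:**
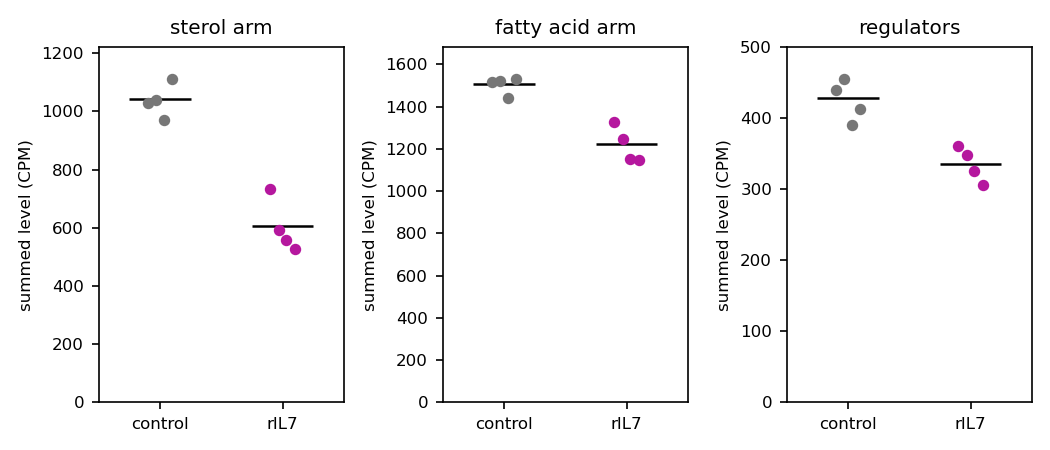
Summed CPM of the sterol arm, the fatty acid arm and the regulators in the 4 quadrants of each section (points) and in the whole section (lines), on axes that start at 0. The sterol arm quadrants lie between 969 and 1110.3 CPM in control tissue and between 526 and 732 CPM in the rIL7 section.

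The mevalonate steps carry acetyl-CoA to farnesyl diphosphate. Summed over 7 genes they were at 459 CPM in control tissue and 259 CPM in the rIL7 section, 1.77-fold lower. All 7 genes were lower by at least 1.5-fold with quadrants apart. Acat2, which joins acetyl-CoA units, was at 45.9 and 28.7 CPM, and Hmgcs1, which makes HMG-CoA, was at 66.4 and 42.0 CPM. The kinases Mvk and Pmvk, which phosphorylate mevalonate in turn, were at 22.7 and 13.6 CPM and at 70.0 and 38.1 CPM. Mvd, the decarboxylase that follows them, had the lowest ratio of this step, at 31.9 and 15.9 CPM, 2.01-fold lower (1.78 to 2.28). Idi1, the isomerase of isopentenyl diphosphate, was at 32.3 and 17.8 CPM.

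Fdps, farnesyl diphosphate synthase, held 18.3% of the arm's UMIs in control tissue and 17.0% in the rIL7 section. It was at 190.2 and 103 CPM, 1.84-fold lower (1.76 to 1.93), and a UMI of Fdps was seen in 81.4% of control spots and 69.6% of rIL7 spots. The arm did not rest on Fdps, since the other 17 genes were lower as well.

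The squalene and lanosterol steps commit the pathway to sterols. Their 3 genes were at 199 CPM in control tissue and 106 CPM in the rIL7 section, 1.88-fold lower. Sqle, squalene epoxidase, on chr15:59315092-59331193 of GRCm38.p6, was at 92.8, 95.9, 78.6 and 96.2 CPM in the control quadrants and at 58.3, 41.6, 42.2 and 38.1 CPM in the rIL7 quadrants. Every control quadrant was above every rIL7 quadrant, and the section levels of 91.9 and 45.4 CPM differed by 2.03-fold (1.89 to 2.18). Fdft1, squalene synthase, was at 72.7 and 40.9 CPM, and Lss, lanosterol synthase, was at 34.6 and 19.5 CPM.

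The late steps from lanosterol to cholesterol were the least even group of the sterol arm. Cyp51, the lanosterol demethylase, on chr5:4080674-4104697, was at 81.5, 87.0, 70.1 and 81.2 CPM in the control quadrants and at 49.9, 36.0, 32.5 and 26.6 CPM in the rIL7 quadrants. The section levels were 80.7 and 36.7 CPM, 2.20-fold lower (2.04 to 2.38), with no overlap of quadrants. Hsd17b7, a ketoreductase on chr1:169949535-169969242, was at 11.9, 16.1, 12.4 and 14.8 CPM in control tissue and at 7.07, 6.30, 5.62 and 3.95 CPM in the rIL7 quadrants. It had the lowest ratio of all members, 2.36-fold lower, with a wide interval (1.94 to 2.89) because it was counted least. Msmo1, which oxidizes the methyl groups of carbon 4, was at 77.2 and 39.5 CPM, and Nsdhl, its partner in that removal, was at 23.0 and 12.4 CPM. Tm7sf2, a sterol reductase, was at 14.9 and 8.20 CPM. Dhcr7, which reduces 7-dehydrocholesterol to cholesterol, was at 42.2 and 28.0 CPM, 1.51-fold lower (1.37 to 1.66), and lay at the 1.5-fold line.

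Ebp and Sc5d stood apart from the other sterol genes. Ebp, the sterol isomerase, was at 44.7, 47.0, 42.3 and 41.8 CPM in control tissue and at 37.9, 43.8, 38.9 and 40.7 CPM in the rIL7 quadrants. These quadrants overlapped, and the log2 ratio of -0.13 had an interval that reached 0.00. Sc5d, the sterol desaturase, was at 86.7 and 70.5 CPM, a log2 ratio of -0.30, and its quadrants overlapped. The pair took a larger share of the arm in the rIL7 section, with Sc5d at 8.33% of the arm's UMIs in control tissue and 11.6% in the rIL7 section, and Ebp at 4.24% and 6.66%.

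In the fatty acid arm the desaturases differed more between sections than the genes that supply precursors. Acly, ATP citrate lyase, which makes cytosolic acetyl-CoA for both pathways, was at 405 and 364 CPM, a log2 ratio of -0.15. Acaca, acetyl-CoA carboxylase, was at 42.9, 47.8, 47.9 and 52.8 CPM in control tissue and at 54.9, 46.5, 39.5 and 49.3 CPM in the rIL7 quadrants. It was the only member with a higher level in the rIL7 section, and its log2 ratio of 0.03 (-0.09 to 0.15) was within counting error. Me1, the malic enzyme that supplies NADPH, was at 22.0 and 20.5 CPM, also within counting error.

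Fasn, fatty acid synthase, was at 265, 272, 331 and 311 CPM in control tissue and at 245, 235, 214 and 225 CPM in the rIL7 quadrants. The quadrants lay apart, although the section levels of 288 and 231 CPM differed by only 1.25-fold (1.21 to 1.29). Elovl6, which elongates palmitate, was at 23.5, 19.2, 20.1 and 23.6 CPM in control tissue and at 17.8, 14.4, 14.5 and 14.5 CPM in the rIL7 quadrants, 1.43-fold lower over the section with quadrants apart.

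The 4 desaturase genes summed to 691 CPM in control tissue and 518 CPM in the rIL7 section, 1.34-fold lower. All 4 are on chromosome 19 of the mouse. Fads2 and Fads1, the delta-6 and delta-5 desaturases of polyunsaturated fatty acids, showed the largest differences of the arm. Fads2, on chr19:10062765-10101503, was at 55.1, 56.5, 50.5 and 56.6 CPM in control tissue and at 35.9, 36.8, 25.6 and 27.2 CPM in the rIL7 quadrants, 1.73-fold lower (1.59 to 1.89). Fads1, on chr19:10182877-10196874, was at 155, 152, 147 and 154 CPM in control tissue and at 113, 108, 99.2 and 94.9 CPM in the rIL7 quadrants, 1.46-fold lower (1.39 to 1.54). In both genes every control quadrant was above every rIL7 quadrant.

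Scd1 and Scd2, the stearoyl-CoA desaturases that make monounsaturated fatty acids, had quadrants that overlapped. Scd1 was at 189.7, 173, 129.6 and 156 CPM in control tissue and at 142, 151, 129.6 and 143 CPM in the rIL7 quadrants, and its section levels of 168 and 142 CPM gave a log2 ratio of -0.24. Scd2 was at 347, 352, 246 and 281 CPM in control tissue and at 269, 239.9, 245 and 205 CPM in the rIL7 quadrants, with section levels of 316 and 239.6 CPM and a log2 ratio of -0.40. Leaving both out moved the log2 ratio of the fatty acid arm from -0.30 to -0.28. Reads of paralogs such as these may be split by the counting, so the values of single Scd and Fads genes carry that uncertainty. Lpin1, a phosphatidate phosphatase of glycerolipid synthesis, was at 32.2 and 27.4 CPM with overlapping quadrants.

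Among the regulators, Insig1 differed between the sections and Insig2 did not beyond counting error. Insig1, an SREBP target that holds SCAP in the endoplasmic reticulum, on chr5:28071412-28078662, was at 85.7, 83.8, 74.1 and 80.3 CPM in control tissue and at 49.1, 37.2, 34.3 and 25.9 CPM in the rIL7 quadrants. The quadrants lay apart, and the section levels of 82.1 and 36.9 CPM differed by 2.23-fold (2.06 to 2.41). Insig2, its paralog, was at 24.4, 31.9, 24.3 and 28.1 CPM in control tissue and at 25.5, 28.4, 30.4 and 23.9 CPM in the rIL7 quadrants, with a log2 ratio of -0.01 (-0.16 to 0.15).

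The genes of the transcription factors themselves differed little. Srebf1 was at 88.8, 98.9, 76.2 and 78.9 CPM in control tissue and at 82.6, 83.1, 77.9 and 78.3 CPM in the rIL7 quadrants, a log2 ratio of -0.10. Srebf2 was at 111, 108, 95.8 and 102 CPM in control tissue and at 101, 90.9, 87.7 and 74.1 CPM in the rIL7 quadrants, a log2 ratio of -0.25, and the quadrants of both genes overlapped. These are transcript levels, and SREBP activity depends on protein cleavage, which was not measured here.

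Scap was at 109, 114, 96.8 and 101 CPM in control tissue and at 84.6, 93.2, 81.3 and 92.4 CPM in the rIL7 quadrants, which lay apart, with a log2 ratio of -0.27. Stard4, a carrier of cholesterol within the cell, was at 19.9, 18.6, 23.0 and 22.8 CPM in control tissue and at 18.0, 16.7, 14.7 and 11.4 CPM in the rIL7 quadrants, 1.37-fold lower with quadrants apart. Some members overlap another gene in the RefSeq annotation on either strand, among them Fdft1 with Ctsb, Acaca with Tada2a, Tm7sf2 with Vps51, Srebf1 with Rai1 and Lpin1 with Ntsr2.

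The balance between the arms was next compared as the sterol share of all UMIs in the sterol and fatty acid arms. This share was 40.9% in the control section (exact binomial 95% interval 40.5 to 41.3) and 33.1% in the rIL7 section (32.7 to 33.6). It was between 40.2% and 42.1% in the control quadrants and between 31.4% and 35.5% in the rIL7 quadrants, so the quadrants did not overlap. In fatty acid UMIs per sterol UMI, the ratio was 1.45 in control tissue and 2.02 in the rIL7 section.

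For the summed level of each arm, the difference between the sections was widest in the deepest zone, though not for every member. Distance was counted in grid steps inward from the outer boundary of the main piece of tissue. In the control section the sterol arm was higher in each deeper zone, at 934 CPM in steps 1 to 2, 959.8 in steps 3 to 4, 1002 in steps 5 to 7, 1092 in steps 8 to 11 and 1191 at 12 steps or more. In the rIL7 section the same zones were at 571, 648, 645, 593 and 592 CPM, with no such order. The rIL7 level was thus 1.63-fold lower in the outermost zone, 1.48-fold lower in the next and 2.01-fold lower in the deepest. In the control section the CT26 tumor markers were also higher in each deeper zone, from 1205 CPM in the outermost to 1364 CPM in the deepest. They were at 757 and 1113 CPM in these zones of the rIL7 section. Their log2 ratio of rIL7 over control was thus -0.67 in the outermost and -0.29 in the deepest zone. The part of tumor cell content in the order of the sterol arm was not tested.

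The fatty acid arm followed a like order in the control section, from 1358 CPM in the outermost to 1699 CPM in the deepest zone. In the rIL7 section it was lowest in the outermost zone, at 1042 CPM, and highest in steps 5 to 7, at 1291 CPM. Its log2 ratio of rIL7 over control was -0.38 in the outermost zone, -0.19 in steps 5 to 7 and -0.46 in the deepest. The sterol share of both arms stayed between 39.9% and 41.6% over the control zones, whereas in the rIL7 section it was 35.4% in the outermost zone and 32.4% in the deepest.

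**Figure D3:**
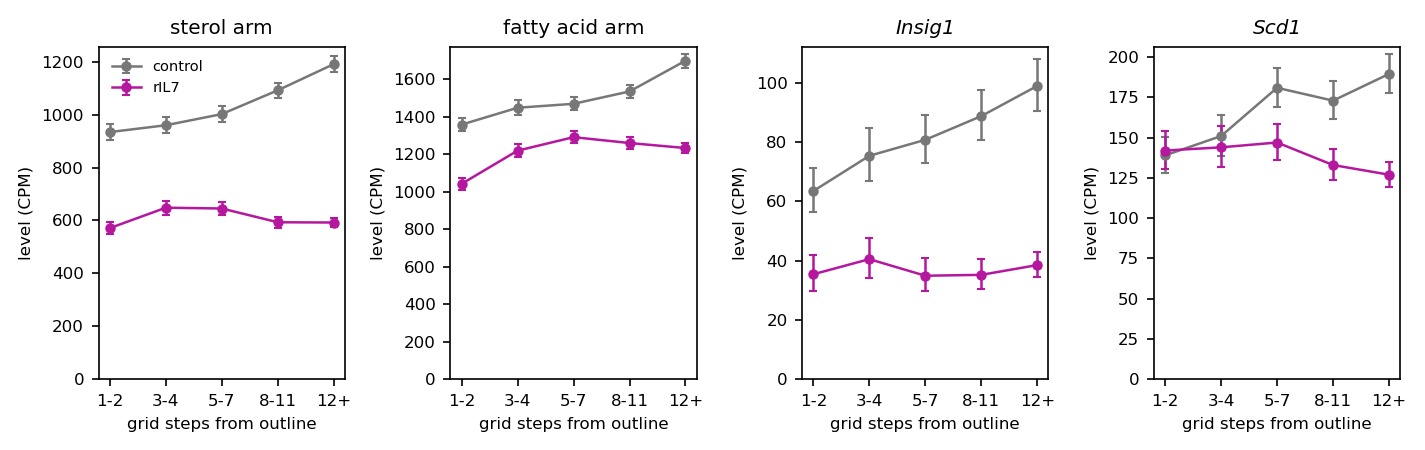
Levels in CPM by distance from the tissue outline, in grid steps, for the sterol arm, the fatty acid arm, Insig1 and Scd1 in both sections, with 95% Poisson intervals of the counts. The control sterol arm is at 934 CPM in the outermost and 1191 CPM in the deepest zone, while the rIL7 zones lie between 571 and 648 CPM.

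Insig1 showed the same arrangement as the sterol arm. It was at 63.5, 75.4, 80.8, 88.8 and 99.0 CPM from the outermost to the deepest control zone and at 35.4, 40.5, 34.9, 35.2 and 38.5 CPM in the rIL7 zones. The log2 ratio was -0.84 in the outermost zone and -1.36 in the deepest. Scd1 was at 139 CPM in control tissue and 142 CPM in the rIL7 section in the outermost zone, a log2 ratio of 0.03 (-0.13 to 0.20), and at 189.6 and 127 CPM in the deepest zone, a log2 ratio of -0.58 (-0.71 to -0.45). Fads2 had a log2 ratio of -0.66 in the outermost and -1.17 in the deepest zone. Some members went the other way. Log2 ratios in the outermost and deepest zones were -0.73 and -0.37 for Sc5d, -0.53 and -0.25 for Acly and -0.52 and -0.21 for Scap.

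In every one of the 5 zones, 17 of 18 sterol genes, 6 of 10 fatty acid genes and 3 of 6 regulators were lower in the rIL7 section. Ebp was the sterol gene left out, being lower in 3 zones. Over all genes 14.4% were lower in all 5 zones, a share not matched for counts.

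Edge and interior were then compared within each section, the edge being the outer 2 grid steps, with 401 control and 330 rIL7 spots. As a sum, the sterol arm was slightly lower at the edge in both. Control edge spots were at 934 CPM against 1068 CPM in the interior (log2 ratio -0.19, -0.24 to -0.15). Of the 18 genes 17 were lower there, with a median of -0.17, against -0.05 over all genes. The rIL7 sum was at 571 against 613 CPM (-0.10, -0.17 to -0.04), and Sc5d, at 43.6 against 75.5 CPM, made up most of that gap. Its 18 genes were mixed, with 12 lower and 6 higher. Their median was -0.05, near the -0.04 of all genes. With an edge of 1 step the rIL7 ratio of the summed arm was -0.21, and with 4 steps it was 0.00 and its sign turned. The fatty acid arm was at 1358 against 1544 CPM in the control (-0.19) and at 1042 against 1249.9 CPM in the rIL7 section (-0.26). Most of the rIL7 gap was from Acly, at 237 against 387 CPM. The median of the 10 genes was -0.07 there, with 7 lower and 3 higher, and -0.12 in the control, with 9 lower and 1 higher. In the control section 0 members were at least 1.5-fold higher or lower at the edge, where 5.78% and 7.62% of all genes were. In the rIL7 section 0 members were higher by that much and 3 were lower, where 14.7% and 10.3% of all genes were. These shares include many genes with fewer UMIs than the members, which pass 1.5-fold more readily through counting error. No edge share was taken over genes of like counts, so the members cannot be called flatter than such genes.

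The 3 genes were Acly, Sc5d and Hsd17b7. Acly was at 237 CPM at the rIL7 edge and 387 CPM in its interior, a log2 ratio of -0.71, against 342 and 420.1 CPM and a log2 ratio of -0.30 in the control. Sc5d was at 43.6 and 75.5 CPM in the rIL7 section, a log2 ratio of -0.79, and -0.33 in the control. Hsd17b7 had 7 UMIs at the rIL7 edge, which gave a log2 ratio of -1.86 with an interval from -3.20 to -0.78. In contrast, Mvk and Ebp were the members higher at the rIL7 edge beyond counting error, with log2 ratios of 0.44 (0.04 to 0.82) and 0.33 (0.09 to 0.56), against -0.17 and 0.14 in the control. Summed over the arm's first 7 genes, the mevalonate steps were at 262 CPM at the rIL7 edge and 259 CPM in its interior.

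**Figure D4:**
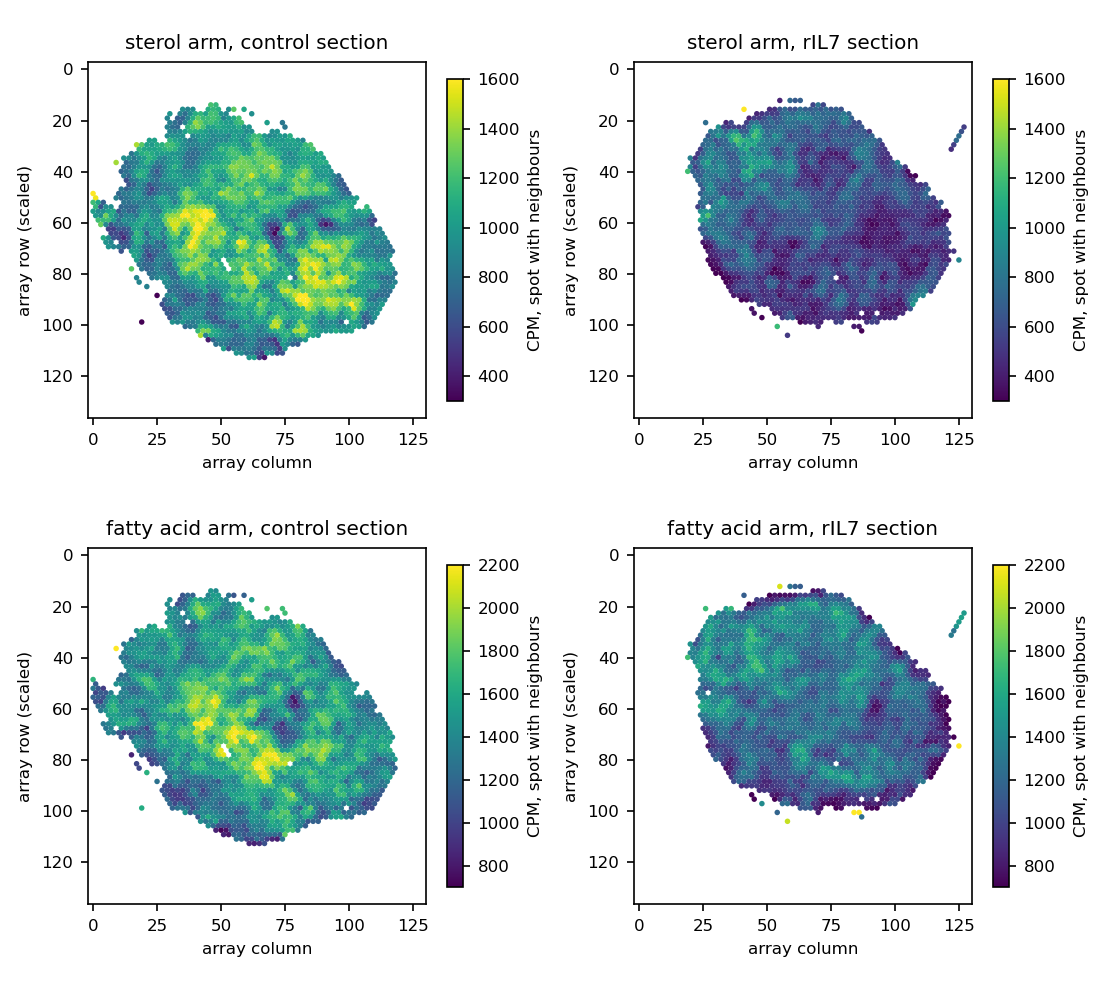
Level in CPM of the sterol arm (top) and the fatty acid arm (bottom) over the spots of the control (left) and rIL7 (right) sections, each spot pooled with its direct neighbors and placed by array column and row. Both sections share a color scale in each row and values outside it take the end color, and the section levels are 1041 and 607 CPM for the sterol arm and 1507 and 1224 CPM for the fatty acid arm.

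Local variation was described in blocks of 8 array rows by 16 array columns with at least 30 spots, 34 in control tissue and 32 in the rIL7 section. The sterol arm was between 790.0 and 1445 CPM in the control blocks, with a median of 1051, and between 439 and 887 CPM in the rIL7 blocks, with a median of 599. Of the 32 rIL7 blocks, 30 were below the lowest control block. For the fatty acid arm 19 of the 32 were below the lowest control block, and the ranges were 1247 to 1891 CPM and 887 to 1462 CPM. In the rIL7 section 0 blocks reached the control median of either arm.

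Within each section, blocks with a high level of one arm tended to have a high level of the other. Spearman's rho between the sterol and fatty acid arms was 0.81 in control tissue and 0.75 in the rIL7 section, over blocks that share a library and neighbor each other. Insig1 and the sterol arm had a rho of 0.74 in control tissue and 0.66 in the rIL7 section. With the mean UMIs per spot of a block, the sterol arm had a rho of -0.06 in control tissue and -0.13 in the rIL7 section.

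**Figure D5:**
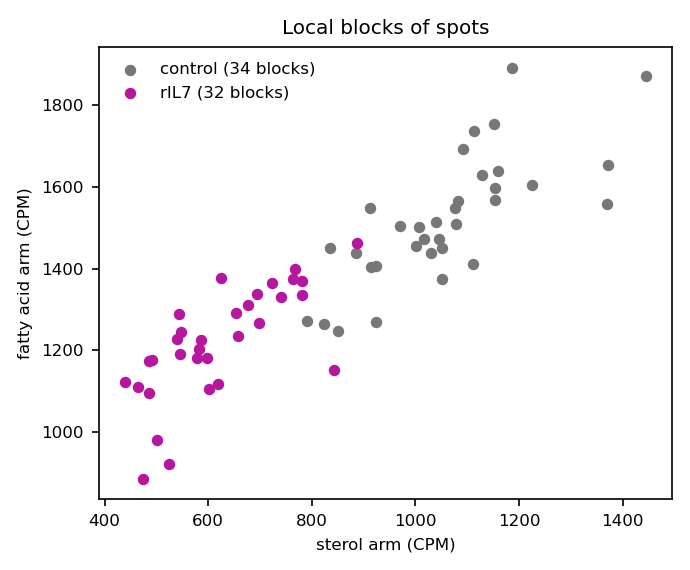
Sterol arm against fatty acid arm, both in CPM, in 34 control and 32 rIL7 blocks of spots. The rho is 0.81 within the control and 0.75 within the rIL7 section, and 30 rIL7 blocks lie below the lowest control block on the sterol axis.

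Summed levels of some lists of cell type markers differed between the sections as well, while others were close. The CT26 tumor markers, both detected, summed to 1293 CPM in control tissue and 1043 CPM in the rIL7 section, 1.24-fold lower (log2 ratio -0.31). Control quadrants were between 1215 and 1332 CPM and rIL7 quadrants between 935 and 1149 CPM. Across blocks, the tumor markers had a rho of 0.55 with the sterol arm and 0.60 with the fatty acid arm in the control, and of 0.40 and 0.74 in the rIL7 section. Per UMI of these 2 markers, the sterol arm had 0.805 UMIs in control tissue and 0.582 in the rIL7 section, a log2 ratio of -0.47 (-0.50 to -0.44). The fatty acid arm had 1.17 and 1.17 UMIs, a log2 ratio of 0.01 (-0.01 to 0.03). The 2 markers themselves had log2 ratios of -0.38 and -0.19, with quadrants apart for 1 of them. These scaled ratios therefore depend on the marker used by more than their intervals show. Counted this way, 5 of 18 sterol genes and 0 of 10 fatty acid genes were lower by at least 1.5-fold, where 2.67% of all genes were. In the 25% of spots with the highest share of tumor marker UMIs, the log2 ratio was -0.64 for the sterol arm and -0.26 for the fatty acid arm.

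All 11 macrophage markers were detected in both sections, and they summed to 2348 and 2448 CPM. The single markers differed in direction, with 7 higher and 4 lower in the rIL7 section. Cd163 was 2.36-fold and Mrc1 1.30-fold higher with quadrants apart. Fcgr1 and Adgre1 had log2 ratios of -0.42 and -0.37 with overlapping quadrants. The quadrants of the sum were between 1707 and 2917 CPM in control tissue and between 1946 and 2909.5 CPM in the rIL7 section. The 11 markers were at 3763 CPM at the rIL7 edge and 2204 CPM in its interior, against 2539 and 2299 CPM in the control. Across blocks, their rho with the fatty acid arm was -0.12 in control tissue and -0.76 in the rIL7 section, and with the sterol arm -0.11 and -0.49. The order of the arms in the rIL7 section depended on block size, since blocks of 12 rows by 24 columns gave -0.62 for the fatty acid arm and -0.71 for the sterol arm, with -0.36 for the sterol arm in the control. In the 25% of spots with the lowest share of macrophage UMIs, the log2 ratio of rIL7 over control was -0.67 for the sterol arm and -0.22 for the fatty acid arm.

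All 12 T cell markers were higher in the rIL7 section, summing to 159 and 325 CPM, and were at 651 CPM at its edge. T cell quadrants were between 142 and 191 CPM in control tissue and between 254 and 388 CPM in the rIL7 section. Of the other lists, fibroblast markers summed to 1983 and 2218 CPM, endothelial markers to 50.5 and 50.7 CPM, hypoxia genes to 756 and 955 CPM and proliferation genes to 1115 and 1151 CPM. B and plasma cell markers were at 5.49 and 141 CPM, with 769.9 CPM at the rIL7 edge. That sum was mostly Igkc, with 3228 of its 3620 rIL7 UMIs. Of the 5 measured genes 4 were higher, and Cd79b was lower within counting error, with 59 and 45 UMIs. Skeletal muscle markers were at 75.5 and 7.03 CPM and keratinocyte markers at 59.3 and 37.7 CPM, with Krt5 and Myh1 at 0 in the rIL7 section. Krt10, at 39.0 and 37.5 CPM, gave 966 of the 970 keratinocyte UMIs of the rIL7 section. Krt14 had 250 UMIs in control tissue and 1 in the rIL7 section. The part of macrophages, T cells and the remaining cell types in the level of either arm was not tested.

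In 4 lists of other genes of the same pathways, chosen with earlier results of these data known, no gene was lower by 1.5-fold. Over all genes 5.95% were lower and 7.72% were higher by at least that much, so few such genes would be found in lists of this size. Of 10 other genes of SREBP processing and turnover, 0 passed 1.5-fold in either direction, and their median log2 ratio was 0.09. Hsp90b1, Mbtps1 and Rnf145, the 3 with the highest levels, had log2 ratios of 0.17, 0.02 and 0.19. Tmem97, a sterol-responsive membrane protein named here after its values were seen, was the only one lower with quadrants apart, where 9.77% of all genes were. It was at 49.8 and 33.3 CPM, a log2 ratio of -0.58, and at 1.49-fold lower it lay just under the 1.5-fold line.

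Of 14 other sterol genes measured, 0 were lower and 1 was higher by at least 1.5-fold, and the median was -0.02. The higher one, Gramd1c, also named after its values were seen, had only 7 and 16 UMIs. The 3 with the highest levels, Npc2, Cnbp and Gramd1a, had log2 ratios of 0.27, 0.11 and -0.07. Among 23 other fatty acid genes, 0 were lower and 1 was higher by at least 1.5-fold, with a median of -0.13. Tecr, Pgd and Elovl1, the 3 with the highest levels, had log2 ratios of -0.47, 0.04 and -0.33. Tecr and Elovl1, which both act in the elongation of long chains, were among 6 genes of that list that were lower with quadrants apart. These 6 were 26.1% of the 23, where 9.77% of all genes, not matched for counts, were lower in this way. The higher one was Acsl1, an acyl-CoA synthetase, at 6.75 and 11.5 CPM, 1.70-fold higher with quadrants apart.

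The 8 genes of sterol efflux and LXR, the receptor of oxysterols, summed to 270.0 CPM in control tissue and 325 CPM in the rIL7 section, with 6 higher and 2 lower. Abca1, the exporter of cholesterol from cells and a known LXR target, was at 25.8 and 61.8 CPM, 2.40-fold higher (log2 ratio 1.26, 1.12 to 1.40). Its quadrants were between 17.2 and 30.3 CPM in control tissue and between 49.8 and 72.5 CPM in the rIL7 section, so they lay apart. The other 7 genes stayed under 1.5-fold. Among them, Nr1h2, which encodes an LXR, had a log2 ratio of 0.07, and Ch25h, which makes an oxysterol, had 0.15. Abcg1 (0.47, 0.28 to 0.66) and Nr1h3 (0.44, 0.25 to 0.63) were higher beyond counting error, with overlapping quadrants. Cyp27a1 was lower, at -0.48 with quadrants apart. Abcg1, Nr1h3 and Cyp27a1 were named after their values were seen.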

How the data were processed

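Space Ranger 1.1.0 with mm10 was run by the authors, and the values they deposited are unnormalized UMI counts for each spot and gene. The spot positions and gene names were used as deposited. Spots over tissue were kept with under 10% mitochondrial UMIs and over 200 genes, as in the study's methods, which left out 2 control spots and 1 rIL7 spot. UMIs were summed and divided by the total of the same spots to give CPM. Log2 ratios have an exact binomial (Clopper-Pearson) 95% interval of the pair of counts, for counting error only. With 1 section per group no test was run. The members and the gene lists were chosen with earlier results of these data known. Every member is named, with quadrant values for the 3 genes of each arm with the largest and the 1 with the smallest difference and for Insig1, Insig2, Srebf1, Srebf2, Scd1, Scd2 and Fasn. Other pathway genes were named among the 3 highest of their list or past 1.5-fold with quadrants apart. Exceptions were Tmem97, Gramd1c, Abcg1, Nr1h3 and Cyp27a1, named after their values were seen. The sebaceous gland list had 1 measured gene, Awat2, at 1.05 and 0.700 CPM. The sections shared 1702 spot barcodes, since barcodes mark grid positions. Gene positions are from RefSeq (GRCm38.p6). Promoter motifs were not analysed here, and 1 gene of the other pathway lists is not reported here. Alternatives included TMM (edgeR 4.0.16) and median-of-ratios scaling (DESeq2 1.42.0). Python 3.11.15, SciPy 1.17.1 and R 4.3.3 were used, and the ratio was tested on simulated data.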

Additional observations from a re-analysis of the deposited data

How the results depend on the processing

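With 1 section per group, differences between animals, sections and slides cannot be told apart from treatment. Scaling by TMM shifted log2 ratios by 0.011 and by median-of-ratios by 0.012. The 34 members and the arms stayed within counting error under these scalings, without the spot filter, with over 1000 genes required per spot, and with mitochondrial, ribosomal protein and haemoglobin genes left out of the totals. No paired analysis was possible because each group has 1 section.

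Scd1, at a log2 ratio of -0.24, was at -0.18 with spots weighted equally, -0.37 in interior spots and -0.31 in spots with no adipocyte UMI, and thinning moved Mvd, Lss, Fasn and Scd2 beyond counting error without a change of sign. In edge spots only, the log2 ratios were -0.71 for the sterol arm, -0.38 for the fatty acid arm and -0.40 for the regulators. In the spots lowest in macrophage UMIs they were -0.67, -0.22 and -0.26. Relative to the CT26 tumor markers, chosen after seeing the data, they were -0.47, 0.01 (a change of sign) and -0.04, with 5 sterol and 0 fatty acid genes lower by 1.5-fold, against 2.67% of all genes, and 10 members turned sign. In the spots highest in tumor markers, also added later, they were -0.64, -0.26 and -0.24. The fatty acid arm had 2 genes lower by 1.5-fold in interior spots (6.50% of all genes) and 2 in the spots lowest in macrophage UMIs (6.24%), and the regulators had 2 in spots thinned to 5000 UMIs (5.30%). Other sign changes were Insig2 at 0.01 under TMM and median-of-ratios and 0.03 in spots with no adipocyte UMI and Srebf1 at 0.03 in the spots highest in tumor markers.

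The edge ratio was -0.23 for the fatty acid arm in the control with spots weighted equally. In the rIL7 section it was -0.21 for the sterol arm with an edge of 1 step and 0.00 with 4 steps, where its sign turned, and -0.16 for the fatty acid arm with 4 steps.

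In blocks of 12 rows by 24 columns, rho was -0.36 (control, sterol and macrophage), 0.71 (control, fatty acid and tumor), 0.88 (rIL7, sterol and regulators), 0.62 (rIL7, sterol and tumor), -0.71 (rIL7, sterol and macrophage) and -0.62 (rIL7, fatty acid and macrophage). In thinned spots it was 0.71 (control, both arms), 0.53 (control, sterol and regulators), 0.39 (control, sterol and tumor), -0.25 (control, fatty acid and macrophage), 0.38 (rIL7, sterol and regulators) and 0.51 (rIL7, fatty acid and tumor). The cause of these changes was not tested.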

Other observations

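A few spots lay off the main piece of tissue, 12 of control and 21 of rIL7 tissue. A detached piece of 3 rIL7 spots, singled out after its values were seen, held 28393 UMIs and was at 5847 CPM for the fatty acid arm, against 1218 CPM in the main piece. Scd1 made up 130 of its 166 fatty acid UMIs, at 4579 CPM against 137 CPM in the main piece. The 7 adipocyte markers, of which 5 met the limit of 20 UMIs, were at 5706 CPM there and at 8.45 CPM in the main piece. The sterol arm was at 387 CPM in the same spots, on 11 UMIs. Over the whole section these 7 markers were at 2.57 CPM in control tissue and 15.0 CPM in the rIL7 section.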
